A study of Sus scrofa with 6 samples.

Results

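miR-184 is 1 of the 1645 entries in a table of small RNA from cultured pig Sertoli cells, and 1 of the 358 entries that carry the name of a known pig miRNA. It was chosen by its row name, ssc-miR-184, because it had the steepest rise with vitamin C among abundant known miRNAs. The values that chose it are therefore given as a description, with no test. The cells were immature Sertoli cells from pig testis at 80 to 90 days of gestation. They were grown in minimum essential medium with 10% fetal bovine serum and 1% penicillin-streptomycin. The 3 control libraries had no treatment, and the 3 AA2P libraries came from cells to which 250 µM L-ascorbic acid 2-phosphate (as its sesquimagnesium salt, a hydrate), a long-lived form of vitamin C, was added after 6 h of culture. The labels give neither the time from treatment to harvest nor whether libraries came from separate animals or cultures, so the p-values below measure a spread between samples that may be technical.

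Sertoli cells are the somatic cells of the seminiferous tubule that support germ cells. miRNAs are short RNAs that guide Argonaute proteins to messenger RNAs and lower their output. miR-184 is a conserved miRNA from a gene of its own, best known from the epithelium of the cornea and lens, where changes in its seed cause inherited eye disease. In neural stem cells it represses Numblike and its gene is bound by the methyl-CpG protein MBD1. In keratinocytes it counteracts miR-205, and in mouse testis it has been described in germ cells. In the RefSeq gene table of the pig assembly Sscrofa11.1, MIR184 lies inside the long non-coding RNA gene LOC106507693, between the protein-coding genes RASGRF1 and ANKRD34C. The nearest other miRNA gene of that table is MIR133B, with 47 other genes in between.

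Levels are in TPM, here reads of an entry scaled to the same total over all entries in every library, with no length term. Reads per miRNA also depend on how well a sequence is captured in the library, so an order of levels between miRNAs is an order of reads. In the control libraries miR-184 stood at 283.8, 292.72 and 237.94 TPM (replicates 1, 2 and 3). In the AA2P libraries it stood at 1967.74, 1934.78 and 1339.08 TPM. Every AA2P library was above every control library, and replicate 3 was the lowest of its group in both groups. The mean went from 271.5 ± 29.4 to 1747 ± 354 TPM (SD, n = 3 per group), a ratio of means of 6.44 and a difference of 2.67 on the log2(TPM + 1) scale. In bulk samples such as these, more cells of a type cannot be told apart from more RNA per cell.

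**Figure D1:**
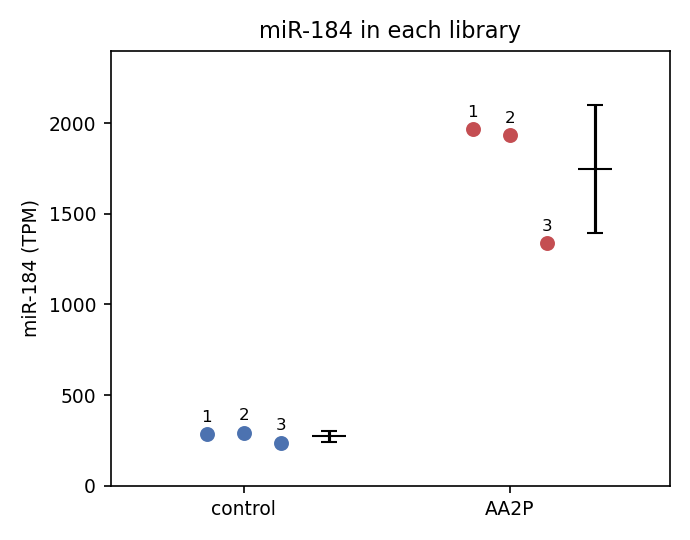
miR-184 in TPM (vertical axis, from 0) in the control and AA2P libraries. Points are libraries, numbered by replicate, and the bar to the right of each group is the mean ± SD of 3 libraries. The 3 AA2P points, 1339.08 to 1967.74 TPM, all lie above the 3 control points, 237.94 to 292.72 TPM.

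The gap between the groups was wider than the range inside either group. The lowest AA2P library was 4.57-fold above the highest control library, whereas the highest and lowest libraries differed 1.23-fold among controls and 1.47-fold with AA2P. Over the 9 pairs of an AA2P and a control library the ratio ran from 4.57 to 8.27. Groups that do not overlap were common in these data. Of the 433 entries tested (at least 1 TPM in at least 3 libraries), 40.4% lay higher in every AA2P library and 9.24% lower in every one.

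Counting error was small beside these ranges. The step between low values implied 25.8 to 36.0 Mreads (M for mega) per library, so that miR-184 rested on 7218 to 9438 reads in the control libraries and on 43497 to 69612 reads in the AA2P libraries. The counting error of a single value was 1.03 to 1.18% in controls and 0.379 to 0.479% with AA2P. The spread between libraries, as a coefficient of variation, was 10.8% in controls and 20.3% with AA2P. Among the 38 known miRNAs with an AA2P mean within 2-fold of that of miR-184, the median coefficient of variation was 8.54% and 1 miRNA had a higher one than miR-184. Among the 46 with a control mean within 2-fold of its control level, 16 varied more than miR-184 in the control libraries.

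AA2P replicate 3, the lowest AA2P library for miR-184, was also the lowest for most other miRNAs that rose. Against the mean of the controls, miR-184 was 2.86, 2.83 and 2.30 higher on the log2(TPM + 1) scale in AA2P replicates 1, 2 and 3. Of the 85 other entries called higher by limma (a linear model with moderated variance, adjusted p under 0.05), replicate 3 was the lowest AA2P library for 60, replicate 1 for 12 and replicate 2 for 13. The median difference of those 85 entries from the control mean was 0.73, 0.71 and 0.58 in the same order. The 21 entries called lower had medians of -0.82, -0.89 and -0.72. Replicate 3 thus stood nearest to the controls in both directions. These entries were called on the same libraries, so the values describe the libraries and test nothing.

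As a share of all miRNA reads, miR-184 went from 0.0271% ± 0.00294 to 0.175% ± 0.0354 (SD, n = 3 per group). It was the 95th, 93rd and 100th most abundant known miRNA in the control libraries and the 49th, 48th and 57th in the AA2P libraries. In controls its nearest neighbours in level were miR-374a-3p at 272 ± 9.98 TPM and miR-455-5p at 258 ± 34.6 TPM. With AA2P they were miR-128 at 1750 ± 182 TPM and miR-423-5p at 1746 ± 137 TPM. The distance to each of these neighbours was less than the SD of miR-184 in that group, so its place among them is not resolved.

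miR-184 gained 1476 TPM, the 14th largest gain among the 265 known miRNAs whose mean was higher with AA2P, and 1.17% of their summed gain. Identical rows, such as those of miR-9, miR-9-1 and miR-9-2, each count in the 265 and in the sum. The largest gain, 37182 TPM, was that of miR-30a-5p, which started from 63458 TPM. The miRNAs with the next larger and the next smaller gain were miR-26a, which gained 1532 TPM from 8064 TPM, and miR-9, which gained 1357 TPM from 2654 TPM. Each of these had a control level at least as high as the AA2P level of miR-184, which started from 271 TPM.

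Among the 204 known miRNAs tested with a mean of at least 10 TPM, 12 had a ratio of means of 2 or more, and that of miR-184, 6.44, was the highest. The next was 2.57 for miR-92b-5p, followed by 2.48 for miR-215, 2.39 for miR-192 and 2.21 for miR-194a-5p. The label of steepest rise holds within this class only. Among all 433 entries tested 3 had higher ratios, and they were singled out after their values were seen. They were the predicted entry Novel_314 (listed at 0 in 2 control libraries and in AA2P replicate 2, and at 141.01 and 141.91 TPM in AA2P replicates 1 and 3), the predicted entry Novel_1019 (0 to 0.43 TPM in controls and 1.56 to 2 TPM with AA2P) and miR-204, described below.

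**Figure D2:**
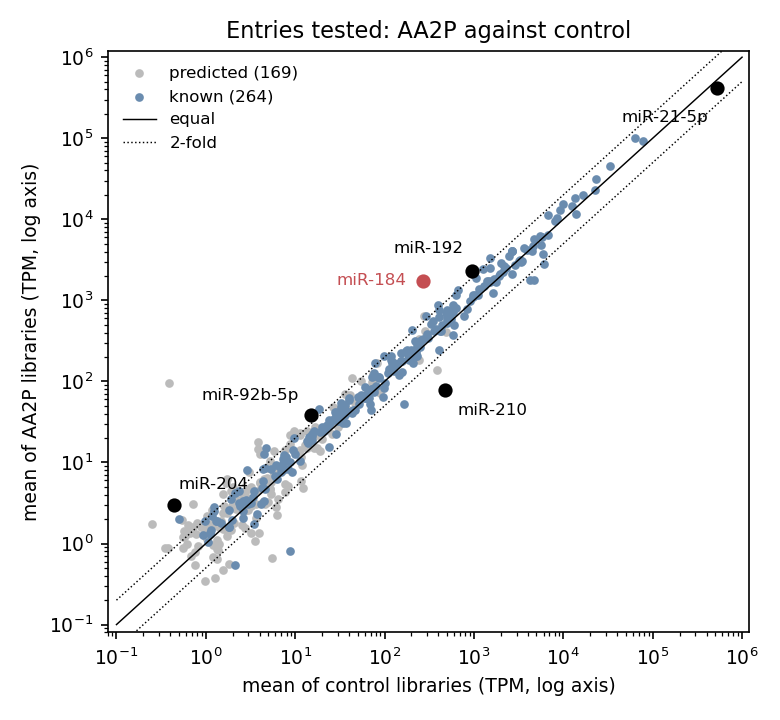
Mean TPM of the 3 AA2P libraries against mean TPM of the 3 control libraries, both on log axes, for the 264 known (blue) and 169 predicted (grey) entries tested. The solid line marks equal levels and the dotted lines 2-fold. miR-184 (red, 271.5 and 1747 TPM) lies farther above the lines than any other known miRNA with a mean of at least 10 TPM, and miR-210 lies farthest below them in that class.

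Known miRNAs of a like starting level are given beside miR-184 as a description. It was chosen for the steepest rise among abundant known miRNAs, so that choice fixed a lower ratio for each of them. The 46 known miRNAs with a control mean within 2-fold of that of miR-184 had ratios from 0.167 (miR-210) to 2.21 (miR-194a-5p), with a median of 1.19. Of these 46, limma called 12 higher and 3 lower, beside a background of 19.9% higher and 4.85% lower calls among all 433 entries tested. The split of the background depended on the scaling. It was 86 higher and 21 lower calls in the deposited TPM, 48 and 51 with trimmed-mean and with median-of-ratios scaling, 44 and 40 with quantile normalization, 40 and 40 after removal of miR-21-5p from the totals, and 59 and 28 after removal of the 10 most abundant miRNAs.

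The 6 known miRNAs around miR-184 in control level are described in the same way, their lower ratios also being fixed by its choice. Above it, miR-194a-5p, of a family made in clusters with miR-192 and miR-215, stood at 324.68, 240.28 and 307.5 TPM in controls and at 740.47, 604.59 and 581.87 TPM with AA2P, and rose by 1.14 ± 0.151 on the log2 scale (SE; limma, adjusted p = 0.00443). miR-374a-3p rose from 272 ± 9.98 to 334 ± 14.2 TPM (limma, adjusted p = 0.0300). The call of miR-374a-3p ended in 12 of 18 alternatives with its direction kept. In 1 more, removal of miR-21-5p from the totals, its direction turned (-0.0016) without a call. miR-34a, a p53 target, stood at 295 ± 33.8 and 384 ± 32.2 TPM (adjusted p = 0.0577), and below miR-184 miR-455-5p stood at 258 ± 34.6 and 320 ± 8.82 TPM (adjusted p = 0.0835). miR-130b-5p and miR-505 stood at 252 ± 29.0 and 304 ± 45.4 TPM and at 246 ± 21.0 and 268 ± 41.0 TPM (limma, adjusted p = 0.198 and 0.550). None of these 6 had an AA2P library above 740.47 TPM, while miR-184 had none under 1339 TPM.

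Ratios between miRNAs of the same library do not depend on the library total. Per 1000 reads of miR-21-5p, the most abundant miRNA of these cells, there were 0.553, 0.552 and 0.459 reads of miR-184 in the control libraries and 4.66, 5.23 and 3.04 in the AA2P libraries. The ratio of the group means was 8.27, larger than that of miR-184 in TPM, while miR-21-5p itself stood at 520562 ± 8757 TPM in controls and 410890 ± 36994 TPM with AA2P. Per 1000 reads of let-7i-5p there were 3.52 ± 0.356 reads of miR-184 in controls and 19.2 ± 4.37 in AA2P libraries (mean ± SD of 3 libraries), a ratio of 5.46. Per 1000 reads of miR-100 there were 12.05 ± 0.869 and 75.9 ± 18.1, a ratio of 6.30. With each of the 3 references every AA2P library was above every control library. Against miR-21-5p and miR-100 the highest library was AA2P replicate 2, and against let-7i-5p it was AA2P replicate 1.

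The difference kept its sign in all 18 alternatives run, from 2.37 to 2.85 on the log2 scale. Among them, the settings of filter, known miRNAs only, trend and block cannot move it. In each alternative miR-184 was first by this difference among known miRNAs with a mean of at least 10 TPM. It was chosen for the steepest rise in this class, so its first place describes that choice and tests nothing. The scalings that brought the median of all entries near 0 lowered the value for miR-184 to 2.38 (trimmed mean), 2.38 (median of ratios), 2.37 (totals without miR-21-5p) and 2.45 (quantile normalization). As deposited, the median of all entries tested was 0.25, so that miR-184 stood 2.42 above it, and between 2.32 and 2.57 above it across the settings.

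**Figure D3:**
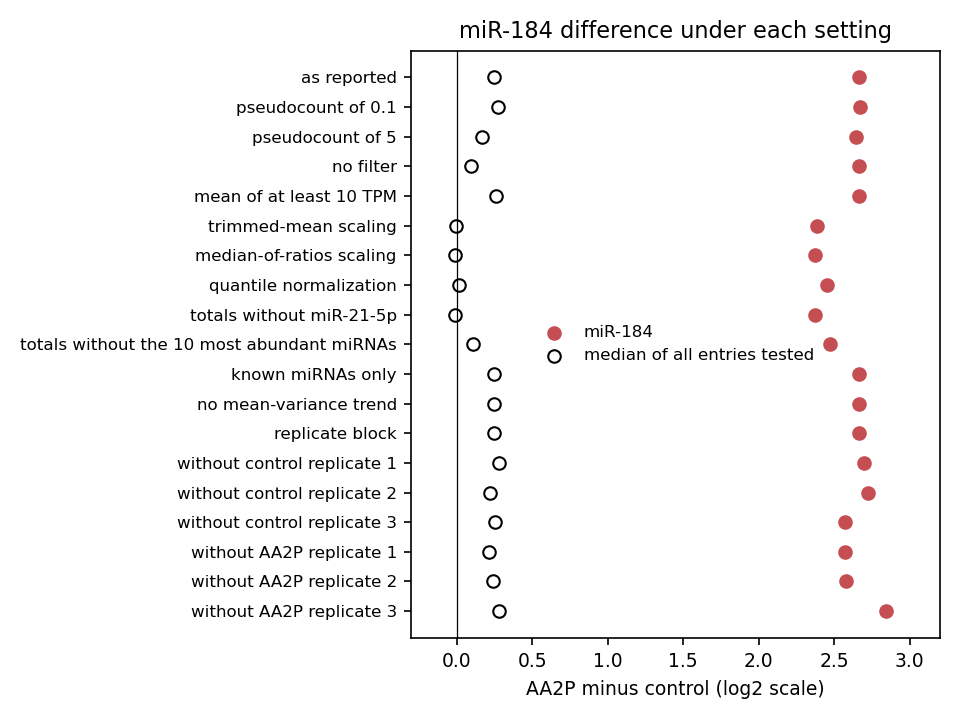
Difference between AA2P and control on the log2 scale (horizontal axis) for miR-184 (filled) and the median of all entries tested (open), as reported and under each of the 18 alternatives (vertical axis). The filled points lie between 2.37 and 2.85 and the open points between -0.01 and 0.28.

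Profiles over the 6 libraries were compared by the root-mean-square distance between values of log2(TPM + 1), each centred on its own mean. Among 203 known miRNAs with a mean of at least 10 TPM no profile came close to that of miR-184. The median distance was 1.22, and a flat profile would lie 1.35 away. The 6 nearest were miR-92b-5p (0.71), miR-215 (0.72), miR-192 (0.72), miR-92b-3p (0.78), miR-32 (0.80) and miR-194a-5p (0.80). They comprise both arms of the miR-92b hairpin, miR-32, which shares the miR-92 seed, and the miR-192, miR-215 and miR-194 group, known for induction by p53. The measure favours large differences of the same sign, and with 2 groups of 3 libraries it mostly reads the group difference. miR-184 was chosen for the steepest rise in this class, so the lack of a close profile mostly follows from that choice.

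The nearest profile, miR-92b-5p, stood at 17.58, 13.58 and 14.08 TPM in controls and at 35.32, 48.15 and 32.88 TPM with AA2P. miR-192 stood at 1014.97, 945.92 and 906.02 TPM in controls and at 2478.18, 2338.05 and 2028.17 TPM with AA2P. In both, as in miR-184, AA2P replicate 3 was the lowest AA2P library and still above every control library, but the ratios of means, 2.57 and 2.39, were well under that of miR-184. The profile closest to the mirror image of miR-184 was nearer than any of these. It was that of miR-210, the miRNA induced by hypoxia-inducible factor, at a distance of 0.27. miR-210 stood at 498.41, 420.09 and 487.54 TPM in controls and at 90.92, 70.91 and 72.5 TPM with AA2P, 0.167 of its control level. miR-146b (0.55) and miR-222 (0.64) came next. Nearness to the mirror image likewise mostly reads the size of a fall.

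**Figure D4:**
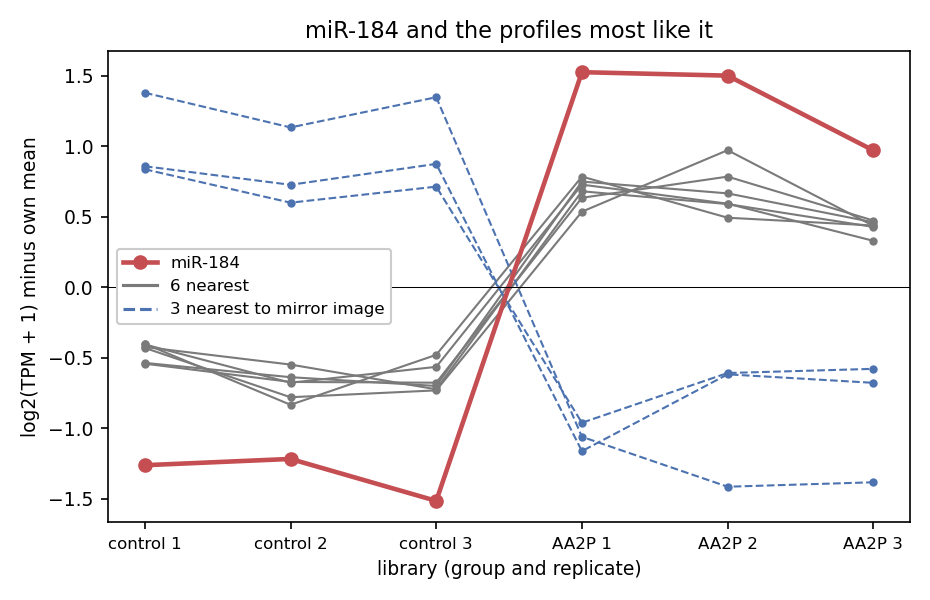
Values of log2(TPM + 1) minus their own mean over 6 libraries (vertical axis) in each library (horizontal axis) for miR-184 (red), the 6 known miRNAs nearest to it (grey) and the 3 nearest to its mirror image (blue, dashed). Lines join the points of 1 miRNA and imply no order of libraries. miR-184 spans a wider range than the grey lines, and the widest blue line, miR-210, mirrors it at a distance of 0.27.

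Other miRNAs of the settings in which miR-184 is known were examined as lists, with calls by limma over all 433 entries. miR-205, its partner in keratinocytes, was near the limit of detection, with 0.31, 0.06 and 0.10 TPM in controls and 0.33, 0 and 0.03 TPM with AA2P. A count of 0 allows up to 0.0834 to 0.116 TPM in these libraries. Only replicate 1 of each group stood clearly above this range, so no ratio is given for miR-205.

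Of the 6 tested miRNAs known from skin, cornea and lens epithelium, 1 was called higher and none lower by limma, beside a background of 19.9% and 4.85%. At an unadjusted p under 0.05 there were 1 and 1, beside 173 of all 433 entries in either direction. The median log2 difference of the list was -0.12, beside 0.25 for all entries tested. The one called was miR-204, known from the retinal pigment epithelium and lens, where it represses MEIS2. It stood at 0.54, 0.62 and 0.16 TPM in controls and at 3.68, 3 and 2.19 TPM with AA2P. All AA2P libraries were above all control libraries, the ratio of means was 6.72, and the difference was 1.46 on the log2(TPM + 1) scale, which understates the change of so low a miRNA. miR-204 passed the filter on low values only through its 3 AA2P libraries, so its call depended on the group where it was high and supports nothing. With no filter, over 1645 entries, limma gave it an adjusted p of 0.0361. At these levels 1 TPM stood for 25.8 to 36.0 reads.

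None of the abundant members of the same list was called in the deposited TPM. miR-182, of the sensory miR-183 cluster, stood at 6662 ± 413 and 6310 ± 1034 TPM (limma, adjusted p = 0.609), and its cluster partner miR-183 at 4413 ± 165 and 4015 ± 515 TPM (adjusted p = 0.335). The third member, miR-96-5p, stood at 439 ± 59.0 and 500.1 ± 54.7 TPM (adjusted p = 0.319). miR-24-3p stood at 3427 ± 184 and 3031 ± 362 TPM, and the keratinocyte miRNA miR-31 at 774 ± 87.3 and 642 ± 10.6 TPM (adjusted p = 0.226 and 0.0984). miR-183, miR-24-3p and miR-31 passed as lower under 3, 4 and 6 of the 18 alternatives, mostly scalings that lowered the median of all entries, and miR-96-5p turned lower, without a call, under all 5 other scalings.

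Vitamin C is a cofactor of the TET enzymes that oxidise methylated cytosine, and the second list holds miRNAs whose genes are known to be silenced by DNA methylation in cancer cells. Of its 9 tested members 3 rose, 1 fell and 5 did not pass (background 19.9% and 4.85%), with a median log2 difference of 0.24. miR-9, a miRNA of neural progenitors, stood at 2745.16, 2600.25 and 2617.17 TPM in controls and at 4409.41, 3839.62 and 3785.27 TPM with AA2P, with no overlap (difference 0.59 ± 0.0806; limma, adjusted p = 0.00443). Its call ended after removal of miR-21-5p from the totals. miR-34c, of the p53-induced and male germ cell miR-34 family, rose from 178 ± 8.01 to 242 ± 36.3 TPM, and miR-375, of endocrine cells, from 7.28 ± 0.745 to 11.0 ± 0.412 TPM (adjusted p = 0.0464 and 0.0197). Neither of these calls, of miR-34c and of miR-375, held under any of the 5 other scalings.

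The member that fell was miR-152, which represses DNMT1. It stood at 5100.83, 6262.55 and 6429.10 TPM in controls and at 4205.14, 3162.86 and 3862.75 TPM with AA2P (difference -0.67 ± 0.141; limma, adjusted p = 0.0183). The call ended in 5 of 18 alternatives, among them without control replicate 2 or 3. miR-193a-5p stood at 208 ± 20.7 and 169 ± 6.01 TPM (adjusted p = 0.0746) and passed as lower in 7 alternatives, among them the 5 other scalings. miR-129b, which has the same values as miR-129a-5p in the table, stood at 151 ± 6.91 and 180 ± 21.1 TPM (adjusted p = 0.137). miR-137, another member, was listed at 0.04 TPM in 1 control library and at 0 in the other five libraries. The highest ratio of means among the called members of this list was 1.51, that of miR-9, beside 6.44 for miR-184.

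Of the 7 tested miRNAs known from neural stem cells and neurons, 2 rose and none fell by limma (background 19.9% and 4.85%; 4 and 0 at an unadjusted p under 0.05, beside 173 of all 433 entries), with a median log2 difference of 0.29 beside 0.25 for all entries tested. miR-7-5p, of neuroendocrine cells, stood at 8715.11, 9489.36 and 11187.60 TPM in controls and at 13638.43, 17465.14 and 15122.07 TPM with AA2P (difference 0.65 ± 0.130; limma, adjusted p = 0.0156). Its call ended under 4 of 5 other scalings and without control replicate 2. The other one that rose was miR-9. The abundant miR-125b stood at 3256 ± 271 and 3123 ± 192 TPM and passed as lower under 3 other scalings, and the neuronal miR-128 stood at 1492 ± 166 and 1750 ± 182 TPM and turned lower, without a call, under 4 of them (adjusted p = 0.626 and 0.185 as deposited).

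**Figure D5:**
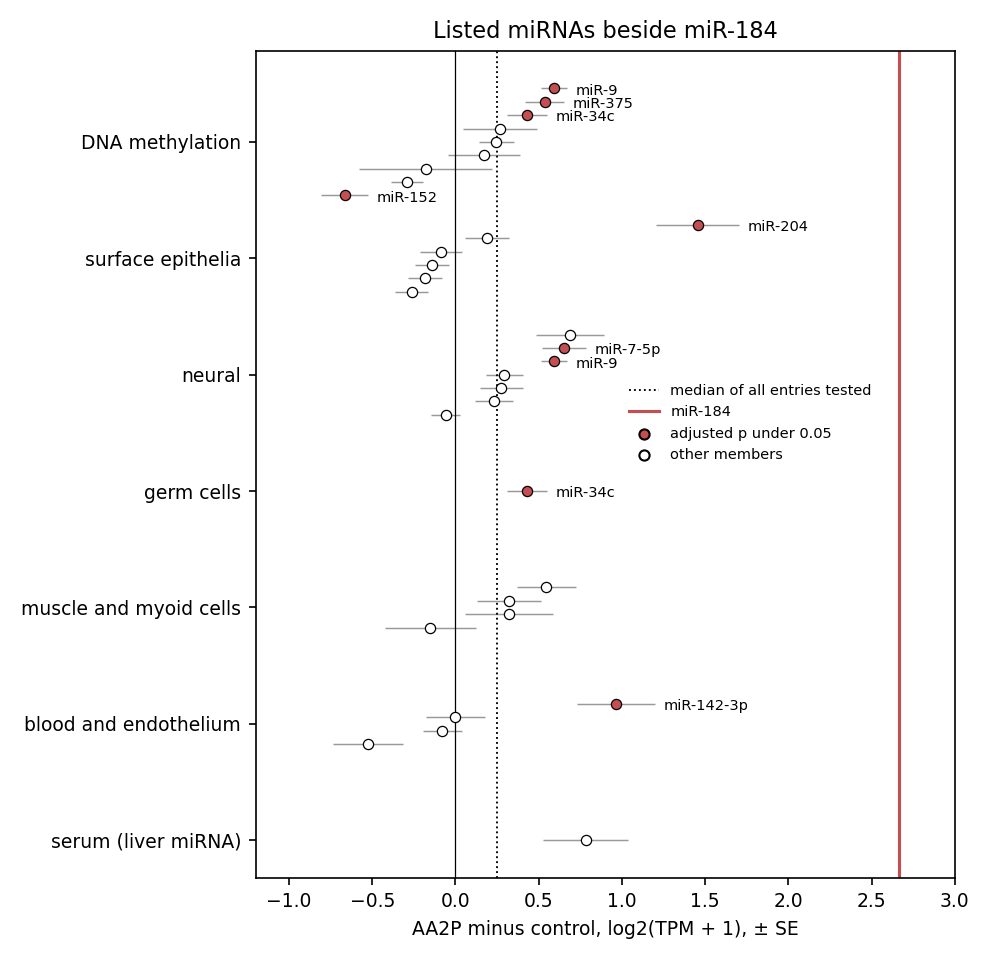
Difference between AA2P and control in log2(TPM + 1) with its SE (horizontal axis) for the tested members of each list (vertical axis). Filled points passed an adjusted p of 0.05 by limma and are named, open points did not, the dotted line is the median of all entries tested (0.25) and the red line is miR-184 (2.67). The listed member nearest to miR-184 is miR-204 at 1.46. miR-204 and miR-142-3p passed the filter only through the AA2P libraries, so their calls support nothing.

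No miRNA was taken as a defining marker of Sertoli cells, so the labelled cell type could not be checked in these data. Of the 10 germ cell miRNAs 2 were in the table, summing to 169 to 183 TPM in controls and 213 to 283 TPM with AA2P. Nearly all of this was miR-34c, the 1 member tested, which limma called higher (adjusted p = 0.0464, background 19.9% higher and 4.85% lower). Its call ended in 13 of 18 alternatives. miR-371-5p, of early germ and stem cells, had means of 0.0233 and 0.0567 TPM. The 6 muscle and myoid miRNAs summed to 168 to 227 TPM in controls and 219 to 307 TPM with AA2P, with no call by limma among 4 tested (background 19.9% higher and 4.85% lower; 1 at an unadjusted p under 0.05, beside 173 of all 433 entries). miR-1 made up most of it, at 153 ± 24.1 and 225 ± 41.4 TPM (limma, adjusted p = 0.0746), and passed as higher in 3 of 18 alternatives. The 8 blood and endothelial miRNAs summed to 103 to 117 TPM and 92.4 to 125 TPM. Most of it was endothelial miR-126-3p at 101 ± 6.50 and 96.4 ± 12.2 TPM (limma, adjusted p = 0.615), which passed as lower under 3 other scalings.

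Of the 4 blood and endothelial miRNAs tested, limma called 1 higher and none lower, beside a background of 19.9% and 4.85%. At an unadjusted p under 0.05 there were 1 and 1, beside 173 of all 433 entries in either direction. The one called was the leukocyte miRNA miR-142-3p, at 0.507 ± 0.0802 TPM in controls and 1.98 ± 0.627 TPM with AA2P (limma, adjusted p = 0.0293). It too passed the filter only through the AA2P libraries, and its call ended with no filter (adjusted p = 0.142), with quantile normalization (0.0647), with the replicate number as a block (0.0837) and without any 1 control library. miR-486 of the same list went the other way, at 3.76 ± 0.549 and 2.34 ± 0.710 TPM (limma, adjusted p = 0.118). AA2P replicate 1 held the highest value of miR-142-3p (2.68 TPM) and of miR-142-5p and miR-223 (2.08 and 5.40 TPM), which were not tested. In every other library miR-223 was at 0.06 TPM or less. miR-122-5p, a liver miRNA also found in serum, stood at 4.65 ± 1.56 and 8.63 ± 1.96 TPM (limma, adjusted p = 0.0746). It passed as higher in 2 of 17 alternatives. The part of other cell types in the difference of miR-184 was not tested.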

How the data were processed

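Small RNA libraries of 3 control and 3 AA2P samples were compared. The authors deposited 1 table of TPM, rounded to 2 decimals, in which each library sums to the same total over 1645 entries. Per the submitters' processing notes, Bowtie was among the tools, without a stated version or use. The miRNA annotation, the genome build and the treatment of reads matching several entries: not given in the sources used here. Depth was inferred from the step between values under 3 TPM: all fell on whole reads to a tolerance of 0.0051 TPM, for which rounding alone gives 26.3 to 36.7%. Depths and errors drawn from it cover counting error only.

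The 433 entries (264 known, 169 predicted) that reached 1 TPM in 3 or more of 6 libraries were tested as log2(TPM + 1) with limma 3.58.1 in R 4.3.3, with a mean-variance trend, two-sided and adjusted by Benjamini-Hochberg. In simulated data for this comparison (484 entries tested), limma called 94.0% of 67 entries changed by 1 on the log2 scale and 51.5% of 66 changed by 0.5. The simulation gave every entry the same relative spread beyond counting error and drew rises and falls at random. In the deposited data the spread differed between entries and the median difference was 0.25, so these shares may not hold there. Identical rows of a list counted once, whereas in counts over all entries or known miRNAs each row counted. List members without an arm matched the entry without or with an arm ending.

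miR-184, the lists and the rules were chosen with earlier results of these data known. Named were miR-184, the 6 nearest and 3 mirror profiles, the 3 neighbours above and below in control level, miR-205, 3 reference miRNAs, and per list up to 5 abundant members and every call. Same-numbered libraries deviated together with correlations of 0.29, 0.06 and 0.18, not all over 0.1, so the number was a block only in an alternative. Alternatives covered the pseudocount, filter, scaling, trend, block and each library left out.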

Additional observations from a re-analysis of the deposited data

How the results depend on the processing

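The miR-184 difference, 2.67 on the log2 scale, was 2.57 to 2.85 with 1 library left out. It was 2.38 with trimmed-mean and with median-of-ratios scaling and 2.37 after removal of miR-21-5p from the totals. In the other alternatives it moved by less than the replicate spread (1 SD, 0.249). Among those, the settings of filter, known miRNAs only, trend and block cannot move it. Over all entries 107 calls became 57 with no filter (1645 entries tested), 63 with the replicate block (52 higher, 11 lower) and 63 to 97 with 1 library left out, the lowest without control replicate 3. Among the 36 listed or neighbouring entries 9 calls became 4 with no filter, 15 with known miRNAs only and 4 with the replicate block. They became 4 to 7 with 1 library left out, the lowest without AA2P replicate 1. Without any 1 AA2P library only 34 entries were tested, as the called miR-204 and miR-142-3p no longer passed the filter. The split of 8 higher and 1 lower became 4 and 8 with trimmed-mean scaling. Same-numbered libraries share only a number; 2 of 3 correlated best with their own. Of the 9 calls among list members and neighbours in level, that of miR-194a-5p held in all 18 alternatives; single miRNAs among the nearest and mirror profiles were not followed through the alternatives as such. Of the 6 nearest profiles, at least 4 remained among the 6 nearest under each alternative, a check chosen after seeing the data.

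Small differences of uncalled or weakly called entries turned sign, and the cause was not tested. Under median-of-ratios scaling, trimmed-mean scaling and removal of miR-21-5p from the totals, in that order, the values were -0.044, -0.035 and -0.049 for miR-129b, -0.098, -0.090 and -0.10 for miR-96-5p, -0.059, -0.051 and -0.065 for miR-128, -0.022, -0.013 and -0.027 for miR-130b-5p and -0.18, -0.17 and -0.18 for miR-505; miR-374a-3p turned with the last only (-0.0016). Quantile normalization gave -0.081 for miR-96-5p, -0.023 for miR-128, -0.012 for miR-34a and -0.073 for miR-505, and totals without the 10 most abundant miRNAs -0.0037 for miR-96-5p and -0.084 for miR-505. With 1 library left out, miR-505 ranged from -0.011 (without AA2P replicate 2) to 0.18 and miR-126-3p from -0.16 to 0.018 (without AA2P replicate 3).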
